A study of Capra hircus with 2 samples.

Results

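The mir-126 hairpin gives a pair of mature strands, 1 from each side of its stem, and both were followed here through the small RNA of the goat mammary gland. They are the entries miR-126 and miR-126* of the study's list of conserved miRNAs, 2 of 346 entries. A sequence tag, meaning a distinct read sequence with its count, was assigned to an entry when its first 18 nt or more were the first bases of the listed sequence, whatever its 3′ end. Small RNA had been sequenced in 2 libraries, 1 from the dry period and 1 from peak lactation, each made from the pooled mammary glands or RNA of 3 Xinong Saanen dairy goats 2.5 years old, for which the labels name no treatment. The labels give 75 days after lambing for the dry period but 320 for peak lactation. The text of the study has these days the other way round, and the stage names of the labels were used. The libraries held 14851375 (dry period) and 15712891 (peak lactation) clean reads, of which 61.1% and 14.4% were counted for conserved miRNAs. With 1 pooled library per stage there was no spread between replicates, so every interval and p value covers the counting of reads alone, and each test compares these libraries rather than the stages.

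MicroRNAs are cut from a hairpin as a short duplex, and 1 strand of it is usually loaded into an Argonaute protein while the other, the star strand, is mostly lost. Bases 2 to 8 of the loaded strand, the seed, pair with target mRNAs, so a strand that starts 1 nt earlier has another seed. The mir-126 hairpin lies within EGFL7, a gene for a protein secreted by endothelial cells, and both were placed together in the gene table of goat assembly ARS1.2. The miRNA is known as a marker of endothelium and as a regulator of vessel growth, through targets such as SPRED1 and PIK3R2 of the 3p strand and DLK1 of the 5p strand.

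The listed sequences are shown first, with their seeds in capitals, because the names and the start sites both turn on them.
miR-126: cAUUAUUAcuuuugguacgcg
miR-126*: cGUACCGUgaguaauaaugcg
The study's list marks miR-126 as 5p and miR-126* as 3p. In common vertebrate usage too, the strand rich in A and U that is listed here as miR-126 comes from the 5′ side of the hairpin. The strand listed as miR-126* comes from the 3′ side. These strands are called the 5p arm and the 3p arm in what follows. Older catalogues used the plain name for the 3p arm and the star for the 5p arm, so the names of this list run in the opposite order. Reads that were assigned to the entry "miR-126" by sequence are therefore reads of the 5p arm. Which arm the study's own values carry under either name was not tested. Paired with each other, the listed strands formed 18 base pairs with 1 unpaired base inside each strand and 2 nt left free at each 3′ end, at a computed energy of -22.2 kcal/mol. These are the free ends that the hairpin-cutting enzymes are known to leave. A 3p strand that started 1 nt before the listed base gave the same 18 pairs and free 3′ ends, at -22.3 kcal/mol. It had 1 unpaired base at its 5′ end. None of the other listed miRNAs had the seed of either listed strand (0 other entries).

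The 5p arm had more reads than the 3p arm in both libraries. It had 1677 dry period reads, which was 112.9 reads per 1000000 clean reads (RPM, 95% interval 107.6 to 118.5), and 1062 reads at peak lactation, which was 67.6 RPM (63.6 to 71.8). The 3p arm had 238 dry period reads (16.03 RPM, 14.1 to 18.2) and 217 at peak lactation (13.8 RPM, 12.1 to 15.8). The 5p intervals of the libraries did not overlap, and the 3p intervals did. Ordered by reads among the 346 listed miRNAs, the 5p arm stood 85th in the dry period and 77th at peak lactation, and the 3p arm 150th and 121st. Both arms lay far above the level of 3 reads, which was 0.202 and 0.191 RPM. Reads of the opposite strand were almost lacking, with 3 for the 5p arm and 2 for the 3p arm in the dry period and 0 for both at peak lactation.

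The 5′ ends set the arms apart. To see starts other than the listed one, all tags that held positions 3 to 18 of a listed sequence were collected at any offset. The 5p arm then had 1718 and 1079 reads, of which 98.1% and 99.0% started at the listed base. The 3p arm had 453 and 474 reads, and the listed base was the start of only 52.8% and 46.6% of them. The counts tied to the listed start held 238 of these 453 reads and 217 of these 474. The forms of the 3p arm with an earlier start are shown because each carries another seed, in capitals.
miR-126* from the listed start: cGUACCGUgaguaauaaugcg
miR-126* from 1 nt before: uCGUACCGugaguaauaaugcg
miR-126* from 2 nt before: cUCGUACCgugaguaauaaugcg
The start 1 nt before the listed one held 183 of 453 reads in the dry period (40.4%, 36.0 to 44.98) against 207 of 474 at peak lactation (43.7%, 39.3 to 48.2). Its added base was U in 182 of the 183 reads and in 206 of the 207. The U start is also the one in common use for the human 3p strand. The start 2 nt before held 21 reads (4.64%) and 41 reads (8.65%), with CU as the added bases in 20 and 40 of them. The seeds of these forms, CGUACCG and UCGUACC, occurred in 0 other listed miRNAs, so no other entry of the list read the same seed.

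**Figure D1:**
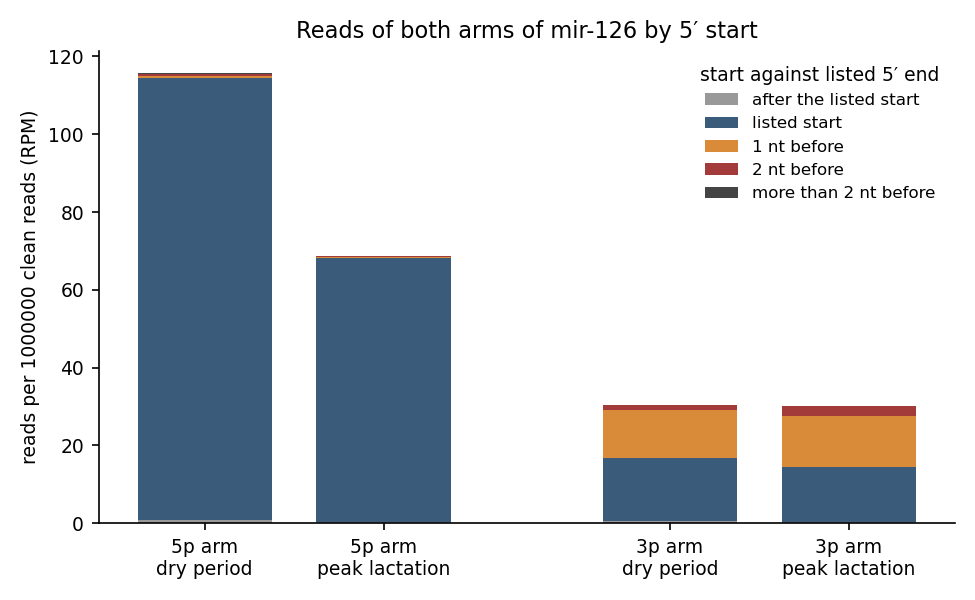
Stacked bars give the RPM of each arm in each library, divided by the 5′ start of the read against the listed start. The 5p bars are almost wholly the listed start, while the 3p bars are split between the listed start and the start 1 nt before it.

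The 3p arm kept this mixture in both libraries. Reads away from the listed start made up 47.2% of its reads in the dry period (42.7 to 51.8) against 53.4% at peak lactation (48.9 to 57.8), a difference that missed the threshold (two-sided Fisher's exact test on reads, p = 0.0659, 0.106 after Benjamini-Hochberg adjustment over 5 tests). For the 5p arm the shares were 1.92% and 1.02%, and the test gave p = 0.0847 (adjusted 0.106, Fisher's exact test). Among 124 conserved miRNAs with at least 100 reads in each library, the median share of reads away from the listed start was 0.931% and 0.997%. The 3p arm had the 4th highest share in the dry period and the 3rd highest at peak lactation. Entries with a higher share in at least 1 library were miR-2887 (84.1% and 87.8%), miR-2478 (77.9% and 80.8%) and miR-3431 (47.9% and 50.4%). The 5p arm, at the 40th and 61st place, started much like the other miRNAs. The start 1 nt before the listed one was not particular to the 3p arm (40.4% and 43.7%). It held 42.2% and 37.2% of reads for miR-101 and 39.7% and 42.0% for miR-140. For miR-323 it held 32.7% and 32.1%, and for miR-214 29.8% and 29.1%. For miR-2887 it held only 8.29% and 6.65%, for miR-2478 9.43% and 9.27%, and for miR-3431 0% and 0.261%.

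**Figure D2:**
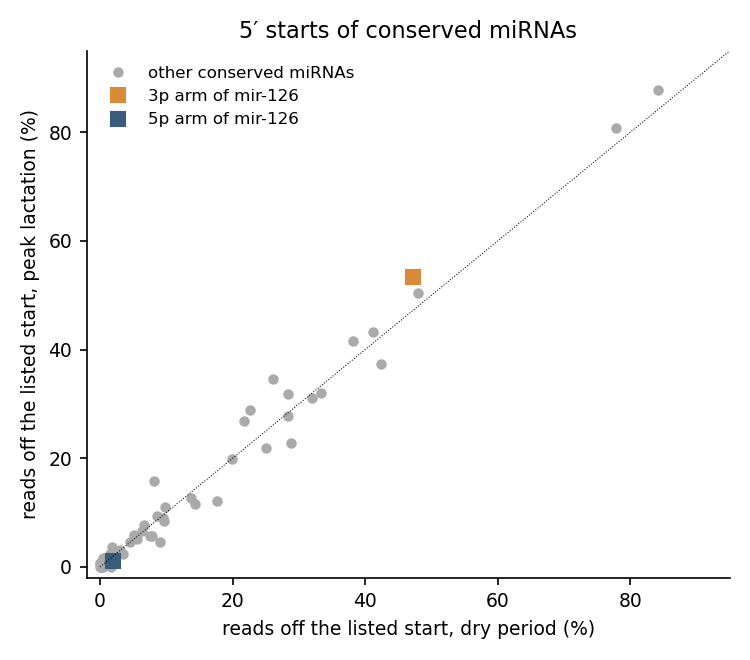
Each point is 1 of 124 conserved miRNAs, with the share of its reads away from the listed 5′ start in the dry period on the horizontal axis and at peak lactation on the vertical axis (both in %). Most points lie near 0 on both axes, the 5p arm among them, and the 3p arm lies near 50 on both.

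The 3′ ends varied in both arms, and the most read forms were the same in both libraries for the 3p arm. The most read tags are shown in the DNA letters of the deposited files, with the seed in capitals, because they show where the ends differ.
5p, listed end: cATTATTActtttggtacgcg
5p, plus A: cATTATTActtttggtacgcga
5p, plus T: cATTATTActtttggtacgcgt
5p, plus AA: cATTATTActtttggtacgcgaa
5p, 1 nt shorter: cATTATTActtttggtacgc
5p, 2 nt shorter: cATTATTActtttggtacg
3p, listed end: cGTACCGTgagtaataatgcg
3p, plus A: cGTACCGTgagtaataatgcga
3p, plus T: cGTACCGTgagtaataatgcgt
3p, 1 nt before, listed end: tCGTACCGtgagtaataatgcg
3p, 1 nt before, plus A: tCGTACCGtgagtaataatgcga
The 5p tag with the listed end had 814 reads in the dry period against 424 at peak lactation. The 5p tag with an added A had 526 and 383 reads. The form 2 nt shorter fell out of the 5 most read 5p tags at peak lactation, with 67 reads against 16, and the form with AA took its place with 25 and 21. The other 5p forms differed less, with 82 and 80 reads for the form 1 nt shorter and 62 and 60 reads for the added T. For the 3p arm the listed form had 106 and 86 reads, the added A 73 and 68, and the added T 17 and 22. The forms that started 1 nt earlier had 54 and 52 reads with the listed end and 35 and 48 reads with an added A. No other single tag of the 3p arm came before these 5 in either library.

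Reads of the 5p arm ended less often at the listed base in the peak lactation library. The share was 48.5% of 1677 reads in the dry period (46.2 to 50.9) against 39.9% of 1062 at peak lactation (37.0 to 42.9), a difference of -8.61 percentage points (two-sided Fisher's exact test, p = 1.02e-05, adjusted p = 5.09e-05). The longer and the 1 nt shorter forms took up this share. An added A made up 31.4% and 36.1% of the 5p reads, an added U 3.70% and 5.65%, and an end 1 nt short of the listed one 4.89% and 7.53%. An end 2 nt short went the other way, with 3.995% and 1.51%. The commonest 5p length was 21 nt in the dry period (49.1%, against 36.0% at 22 nt) and 22 nt at peak lactation (44.1%, against 40.5% at 21 nt).

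The 3p arm had much the same ends, on fewer reads. The listed end made up 44.5% of 238 reads in the dry period (38.4 to 50.9) against 39.6% of 217 at peak lactation (33.4 to 46.3), and Fisher's exact test gave p = 0.298. An added A made up 30.7% and 31.3%, and an added U 7.14% and 10.1%. The share with an added A was high in both arms when set beside other miRNAs. Over 143 conserved miRNAs with at least 100 reads in each library its median was 3.74% and 3.85%, and the 5p arm had the 5th and 2nd highest share and the 3p arm the 7th and 4th. Whether the A was copied from the hairpin or added after cutting was not tested, because the hairpin sequence was not used here.

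**Figure D3:**
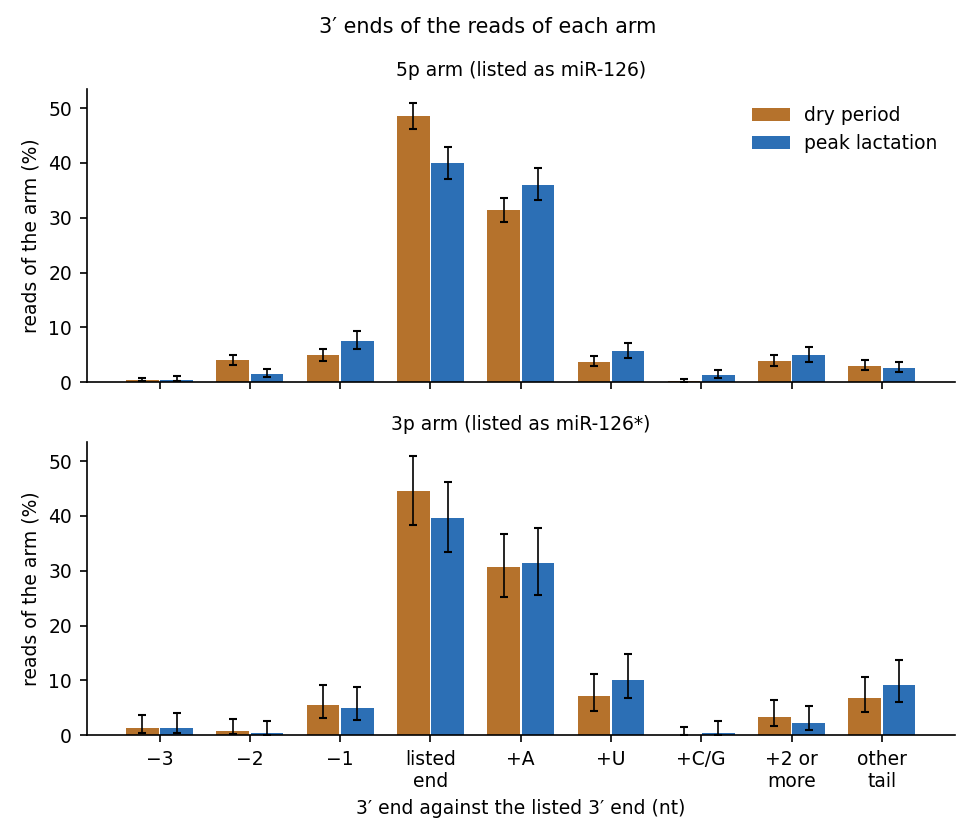
Bars give the share of the reads of each arm (%) by 3′ end, counted from the listed end, for each library, with Wilson 95% intervals. In both arms the listed end and the added A hold most reads, and the 5p bar of the listed end is lower at peak lactation.

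The 3p reads that started 1 nt earlier had other ends. Those that matched the listed sequence over 18 nt ended at the listed base in 29.7% of 182 reads in the dry period against 25.4% of 205 at peak lactation, and carried an added A in 19.2% and 23.9%. The intervals of the listed end (23.5 to 36.7 and 19.9 to 31.7) lay below those of the listed start in the same library. They matched the listed sequence only in part and then went on with other bases in 20.3% and 29.8% of reads, against 6.72% and 9.22% at the listed start. A single short tail, CCAT, stood out among them and was looked at after the values were seen. It ended 6 of the 183 reads with this start in the dry period (3.28%) and 32 of the 207 at peak lactation (15.5%, 11.2 to 21.0), spread over 15 different tags at peak lactation. At the listed start it ended 0 of 239 and 1 of 221 reads, and in the 5p arm 3 of 1718 and 2 of 1079. In all clean reads its share was 0.156% and 0.181%. The median over the 124 conserved miRNAs was 0% in both libraries, and over all starts the 3p arm (1.32% and 6.96%) stood 5th and 2nd among them. Without these tags, the share of 3p reads away from the listed start was 46.5% and 50.1%.

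The balance of reads between the arms differed between the libraries, and this comparison does not depend on how the libraries are scaled to each other. The 3p arm had 0.142 reads for each 5p read in the dry period (0.124 to 0.163) against 0.204 at peak lactation (0.177 to 0.236). As a share of the reads of both arms, the 3p arm held 12.4% and 17.0%. The ratio was 1.44-fold higher at peak lactation (log2 0.53, 0.24 to 0.81, two-sided Fisher's exact test on reads, p = 0.000361, adjusted p = 0.000903). With all starts counted, the ratio was 0.264 (0.238 to 0.292) in the dry period and 0.439 (0.394 to 0.489) at peak lactation, a log2 difference of 0.74 (0.52 to 0.95, Fisher's exact test, p = 2.66e-11). Leaving out the tags that ended in CCAT gave 0.261 and 0.409, a log2 difference of 0.65 (0.43 to 0.87). So the 3p arm had fewer reads than the 5p arm under every counting rule used, but its share of their reads depended on which starts were counted. Whether reads measure the amounts of these different sequences alike was not tested.

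**Figure D4:**
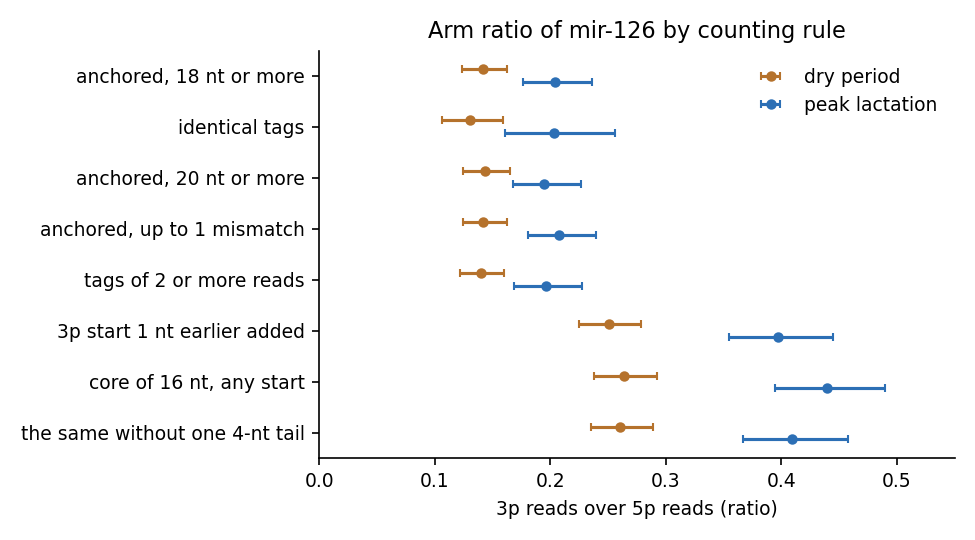
Points give the ratio of 3p reads to 5p reads in each library under 8 ways of counting tags, with 95% intervals from the counting of reads. The ratio is higher at peak lactation under each of them, and both ratios move up once the earlier 3p starts are counted.

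A ratio that differed between these libraries was not particular to mir-126. Of 30 hairpins with both arms listed, 19 had at least 20 reads on each arm over both libraries. The log2 change of the 3p over 5p ratio ran from -1.54 for miR-30b to 2.05 for let-7a, with a median of -0.13, and it was above 0 in 8 of the 19. The counting interval lay wholly above 0 for 6 hairpins and wholly below 0 for 6. The mir-126 hairpin had the 6th highest change, after miR-345 with 0.64 and before miR-22 with 0.27. For every hairpin these counts were tied to the listed starts, and the order with all starts counted was not tried.

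The 5p arm had a lower share of clean reads at peak lactation, and the 3p arm a share whose change could not be told from 0 at this depth. On the scale of clean reads the log2 change, peak lactation over dry period, was -0.74 for the 5p arm (-0.85 to -0.63), which is 1.67-fold lower (two-sided exact Audic-Claverie probability on reads, p = 3.49e-40), but 1.34 per conserved miRNA read. For the 3p arm it was -0.21 (-0.48 to 0.05, exact Audic-Claverie p = 0.113), and 1.87 per conserved miRNA read. Neither arm passed the threshold of an absolute log2 change above 1 on clean reads, but with identical tags alone (814 and 424 reads) the 5p arm did, at -1.02 (-1.19 to -0.85). Of 257 conserved miRNAs with at least 1 RPM in a library, 70.4% passed it downwards and 1.17% upwards, with a median log2 change of -1.44. On this scale both arms had a higher change than most miRNAs. Counted from the highest change down, the 3p arm stood 17th and the 5p arm 51st of 257. In a whole tissue, fewer cells of a type and less of an RNA in each cell cannot be told apart.

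On clean reads, of the starts of the 3p arm, only the rare one 2 nt before the listed start had an interval of its change that lay wholly above 0. These changes also move with the divisor. Reads from the listed start went from 16.1 to 14.1 RPM (log2 -0.19, -0.46 to 0.07), and reads from 1 nt before it from 12.3 to 13.2 RPM (0.10, -0.19 to 0.38). Reads from 2 nt before went from 1.41 to 2.61 RPM (0.88, 0.13 to 1.63), on 21 and 41 reads. Summed over all starts, the 3p arm stood at 30.5 RPM in the dry period against 30.2 RPM at peak lactation (log2 -0.02, -0.20 to 0.17, exact Audic-Claverie p = 0.865). The interval of this sum leaves out a change of the size seen in the 5p arm on clean reads.

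The direction of both arms turned with the divisor. Under the counting rule used here, conserved miRNAs took 61.1% of clean reads in the dry period against 14.4% at peak lactation. These totals depend on the rule for counting tags, and no other total of conserved miRNA reads was tried as divisor. For reads matched to miRNA precursors, the study gave a lower dry period total and a much higher peak lactation total. As divisors, those totals would make the changes per conserved miRNA read of both arms smaller than the values given here. Per 1000000 reads of conserved miRNAs, the 5p arm stood at 184.7 in the dry period against 468.6 at peak lactation, and the 3p arm at 26.2 and 95.8. The log2 change of the 5p arm was then 1.34 (1.23 to 1.45) and that of the 3p arm 1.87 (1.60 to 2.13). With this divisor the median over the 257 conserved miRNAs was 0.64, and 93 of them passed the threshold upwards and 19 downwards. TMM factors gave 0.56 and 1.08, with 23 of the 257 upwards and 52 downwards. DESeq2 size factors gave 0.66 and 1.18, with 30 upwards and 47 downwards. With reads of 20 to 24 nt as divisor, the changes were -0.24 and 0.29. Against the median change of the tested conserved miRNAs, they were 0.70 and 1.22, with 31 of the 257 upwards and 46 downwards. Each of these 6 divisors scales both arms alike, so the order of the arms could not change. The 3p arm was higher by the same step of 0.53 (log2), the change of the arm ratio.

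**Figure D5:**
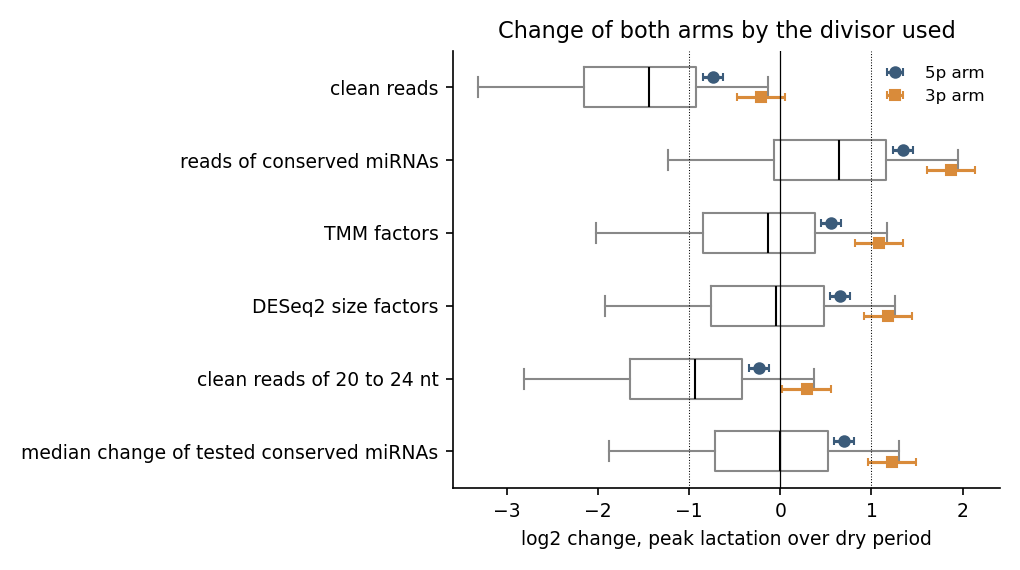
Points give the log2 change of each arm, peak lactation over dry period, under 6 divisors, with 95% counting intervals, over boxes of the change of 257 conserved miRNAs (median, quartiles, whiskers from the 5th to the 95th percentile). A divisor shifts points and box alike, so both arms lie right of the box median throughout, while their side of 0 depends on the divisor.

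Other miRNAs known to be rich in endothelium mostly had a lower share of clean reads at peak lactation, as did most conserved miRNAs (247 of 257). Of 10 measured, 8 passed the threshold downwards and 0 upwards, with a median of -1.21 beside -1.44 for all 257. Over all 257, 70.4% passed it downwards and 1.17% upwards, the shares against which this and the following counts stand. The lowest was miR-221 (-3.32, 11400 and 1211 reads), and the highest was miR-10b (-0.68, 7624 and 5025 reads). Most of these miRNAs are made by other cells as well. Among miRNAs of other cell types, those of stromal fibroblasts had a median of -2.48 (4 of 4 downwards, from miR-199a-3p at -2.96 to miR-199a-5p at -2.25), and those of leukocytes -1.64 (4 of 5 downwards, from miR-142* at -2.92 to miR-150 at -0.41). Smooth muscle and pericytes gave -1.81 (1 of 2 downwards, miR-145 at -2.76 and miR-143 at -0.86), and striated muscle -1.61 (3 of 4 downwards, from miR-206 at -2.60 to miR-1 at -0.90). Epithelium gave -0.96 (3 of 7 downwards, from miR-429 at -1.99 to miR-141 at -0.09). Red blood cells gave 1.06 (2 of 3 upwards, from miR-486 at 0.15 to miR-451 at 1.07). All of these values are log2 changes on clean reads. They carry the shift of -1.44 and, like the mir-126 arms, move with the divisor. In RPM, the endothelial list summed to 6903 and 2698, and the list of red blood cells to 109.9 and 189.5. In the endothelial list, miR-27b and miR-92a had the same counts as miR-27a-3p and miR-92, because equal matches were counted for each. The part of these cell types in the mir-126 values was not tested, and small RNA tags hold no endothelial mRNA markers against which the label could be checked.

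By likeness of change alone, over the 2 libraries and among 141 miRNAs with at least 100 reads in each, the 5p arm was nearest to miR-135a (-0.75, 165 and 104 reads), miR-26a (-0.73, 40073 and 25526 reads) and miR-193a-3p (-0.77, 1309 and 811 reads). The 3p arm was nearest to miR-151* (-0.25, 2163 and 1931 reads), miR-107 (-0.25, 98880 and 87876 reads) and miR-335 (-0.17, 166 and 156 reads). These are log2 changes on clean reads. Their reads ran from fewer than those of the 3p arm to far more than those of either arm.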

How the data were processed

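The authors discarded reads of low quality, without insert or 3′ adaptor, with 5′ adaptor sequence, of poly(A) or shorter than 18 nt, collapsed identical reads, and deposited each tag with its raw count, unaligned. The sources differ on whether tissue was pooled before RNA isolation or RNA after it. The authors then mapped clean reads to the bovine genome with SOAP, allowing 1 mismatch; the deposited tags carry no alignment, and the build is not given in the sources used here.

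Tags were counted for the listed miRNA whose 5′ bases they shared longest (18 nt or more, equal matches counted for each) and divided by clean reads. Read shares have Wilson 95% intervals. A count of 0 was set to 0.01 RPM for the fold. The 2-sided Audic-Claverie probability and Fisher's exact test were applied to reads. Since 1 library per stage leaves no replicate spread, no edgeR or DESeq2 test was run, and their scaling factors were alternatives only. The members, marker lists and tests were chosen with earlier results of these data known. Named tags were the 5 most read of each arm and library. Named miRNAs were the 3 nearest in change to each arm and the highest and lowest of each marker list. The counting was tested on simulated data. The software was Python 3.11.15, numpy 2.4.6, scipy 1.17.1, matplotlib 3.10.9, RNAduplex of ViennaRNA 2.7.2, R 4.3.3, edgeR 4.0.16 and DESeq2 1.42.0.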

Additional observations from a re-analysis of the deposited data

How the results depend on the processing

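No paired analysis was possible because each stage had 1 library, so no replicate could be left out either. Under the alternatives, 45 values kept their direction and side of the threshold or stayed within their counting interval, as did 6 under the alternatives chosen after seeing the data. The stage change of the 5p arm (-0.74) passed the threshold with identical tags only, at -1.02. It reversed to 1.34 with reads of conserved miRNAs as divisor, 0.56 with TMM factors, 0.66 with DESeq2 size factors and 0.70 against the median change. The 3p arm (-0.21) reversed to 1.87, 1.08, 1.18 and 1.22 under the same divisors and to 0.29 with reads of 20 to 24 nt. The reads of each arm were the same under all of these divisors, so only the divisor differed. By the counting rule used here, conserved miRNAs held 61.1% of dry period clean reads but 14.4% of those from peak lactation. The value of 0.29 had another divisor, with 12620354 dry period reads of 20 to 24 nt against 9423868 for peak lactation. Why these totals differed was not tested. The arm ratio moved to 0.264 and 0.439 with any start counted and to 0.261 and 0.409 without CCAT tails, by the added starts. The share of miRNAs past the threshold (71.6% in both directions) moved to 43.6% with reads of conserved miRNAs, 29.2% with TMM and 30.0% with DESeq2 factors. With tags of at least 2 reads, the share of 5p reads away from the listed start moved to 0.956% and 0.191%. The 3p share at the listed end moved to 37.7% and 33.1% with any start counted. Among the reads from 1 nt before the listed start, that share was 29.7% and 25.4%. The cause of these last shifts was not tested. The median-change divisor, the added start and the removal of CCAT tails were chosen after seeing the data. The depth limits the 3p arm most, and nothing here measures the spread between goats.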
